A study of Mus musculus with 6 samples.

Results

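The actin cytoskeleton and focal adhesion genes were examined in mouse retina as a set of 40 genes, from integrins through adhesion scaffolds and small GTPases to the cytoplasmic actins. They were chosen by name, because Bcar1 and terms for actin regulation had leaned lower in Myrf-kd retina, and each of the 40 names matched a single row among the 55450 genes of the deposited table. Since the comparison of Myrf-kd with WT chose the genes, their differences between the genotypes are a description and carry no test of their own. RNA of whole retina had been sequenced from C57BL/6 mice aged 8 weeks. The labels name 3 samples Myrf-kd, which the study's design gives as Myrf +/− mice, and 3 samples wild type (WT). The labels do not say how the allele was made, which part of Myrf it alters, or whether the samples are separate animals. The spread between samples may therefore be technical in part.

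Cells hold on to their matrix through integrins, pairs of membrane receptors whose tails recruit talin, vinculin and paxillin and so tie the matrix to actin filaments. At these focal adhesions the kinases FAK and Src phosphorylate the scaffold Bcar1 (p130Cas), which recruits activators of the GTPase Rac1. The small GTPases in turn steer formins, the Arp2/3 complex and the severing protein cofilin, which set how much actin is in filaments. In the retina the same machinery shapes photoreceptor calyces, Mueller glia endfeet and microvilli, the outer limiting membrane, synapses and vessel walls.

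Each library held between 50695091 and 70298511 units of estimated counts, at about 4 units per fragment. Myrf was listed at 0.279, 0.382 and 0.351 FPKM (fragments scaled for transcript length and library size) across Myrf-kd 1, 2 and 3, against 0.359, 0.397 and 0.463 FPKM in WT 1, 2 and 3. The groups overlapped there, and reads summed over the whole gene do not check an allele whose altered part is not given. On the first principal component of all tested genes (28.9% of the variance) Myrf-kd 3 stood apart at 43.8, and the other libraries lay between −17.3 and 10.8. The labelled tissue showed in the rod markers Gnat1 and Pde6a, at 2930 to 3330 and 709 to 809 FPKM.

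Together the 40 genes made up between 0.289% and 0.314% of the summed FPKM of a library. The 6 most abundant, Actg1, Cfl1, Cdc42, Actb, Pfn2 and Arpc2, held 56.2% of the set's summed FPKM. Of the 40 genes, 39 reached a mean of 1 FPKM over the 6 libraries and entered the fit over 13673 genes, and 27 of them lay above the median of the tested genes (5.97 FPKM). Only the laminin receptor subunit gene Itga6 lay below the filter, at 0.689, 0.597 and 0.372 FPKM across Myrf-kd 1, 2 and 3, against 0.601, 0.639 and 0.527 FPKM in WT 1, 2 and 3. Its lowest value was that of Myrf-kd 3, and its groups overlapped. The fragments behind a gene in a single library ran from about 55 for Gsn to about 7385 for Actg1.

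**Figure D1:**
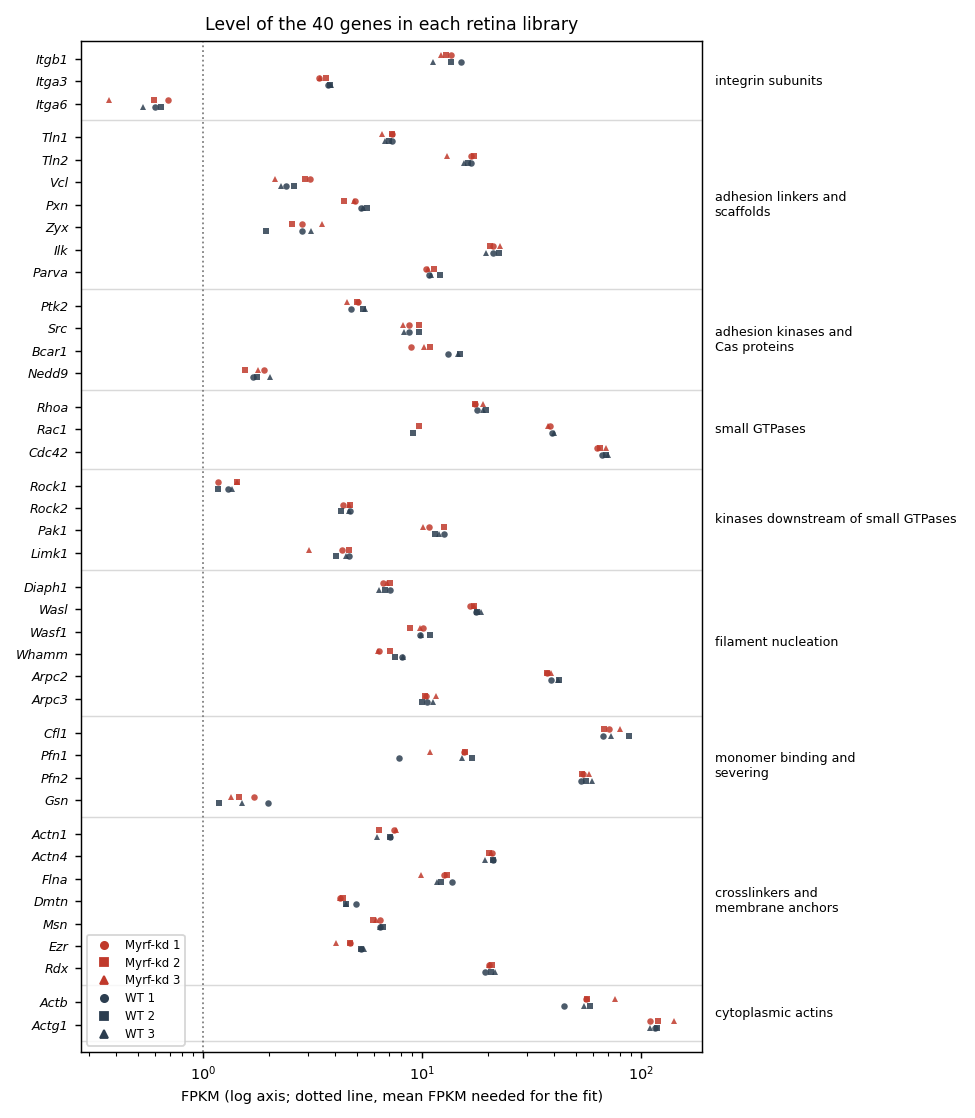
FPKM of each of the 40 genes (log axis) in the 3 Myrf-kd and 3 WT libraries, grouped by role, with symbol shape for library 1, 2 or 3. Levels span from Itga6 at a mean of 0.571 FPKM to Actg1 at 119 FPKM, Rac1 falls into 2 separate levels, and Bcar1 shows its 3 Myrf-kd libraries left of its 3 WT libraries.

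Most of the genes had slightly lower estimates in Myrf-kd. The fitted log2 fold change (Myrf-kd over WT) was below 0 in 29 of the 39 fitted genes, or 74.4%, where 49.0% of all tested genes were below 0. With library totals as the only scaling it was 24 genes, where 40.1% of all tested genes were below 0. Its median was −0.06 over the 39 genes and 0.00 over all tested genes. The sizes were small. In 31 genes the fitted level in Myrf-kd lay within 10% of WT and in 38 within 20%, against 60.7% and 83.6% of all tested genes. With Benjamini-Hochberg adjustment, 0 of the 39 genes passed the quasi-likelihood test of edgeR, where 0.0439% of the tested genes did (6 of 13673, with 0.0146% lower and 0.0293% higher). Before adjustment edgeR put 4 of them under 0.05 (10.3%, where 7.49% of the tested genes were), all lower. DESeq2, which called 53 genes, called 1 of the 39, Bcar1, and limma on log2(FPKM + 1) called 0. In 8 genes (20.5%) the FPKM of the groups did not overlap, all 8 lower in Myrf-kd, where 14.5% of the tested genes did not overlap with 6.57% lower and 7.96% higher. Since the genes were picked on this comparison, nothing is read from these shares.

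**Figure D2:**
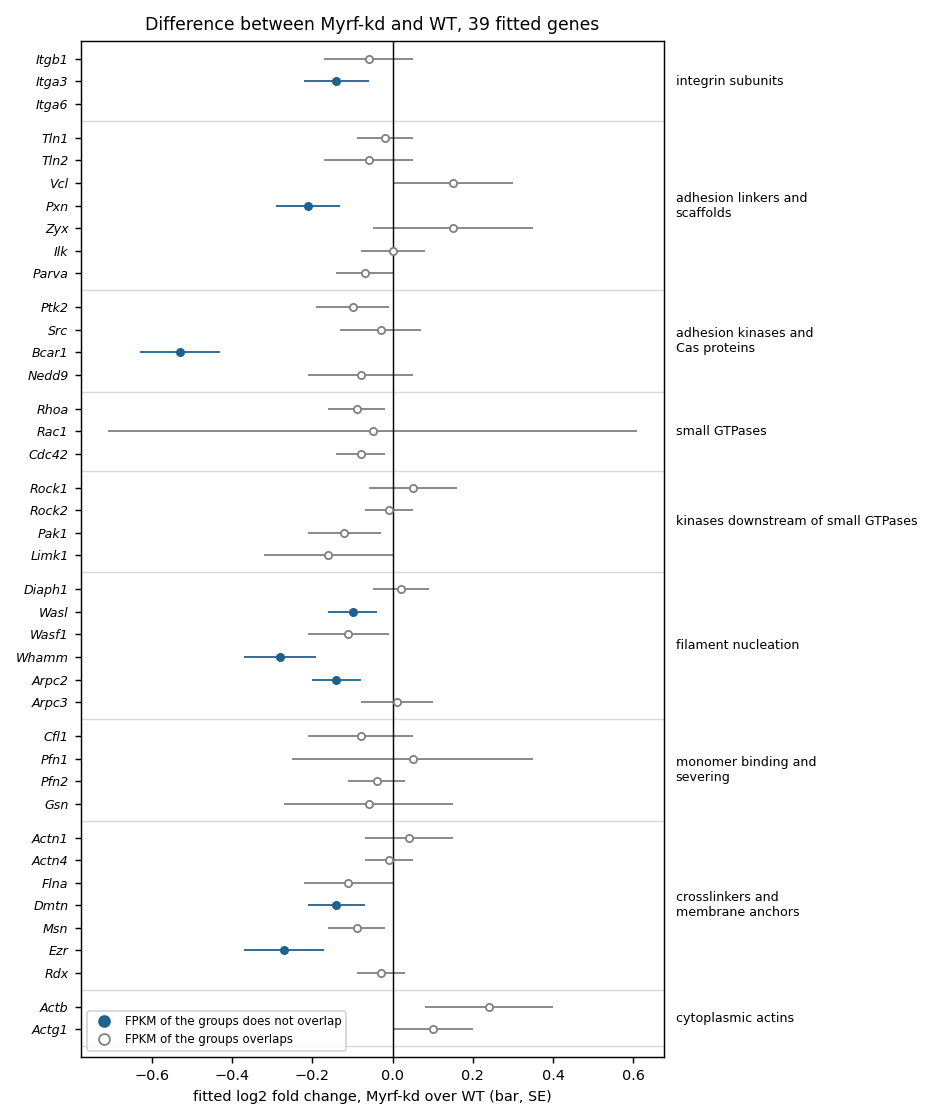
Fitted log2 fold change of Myrf-kd over WT with its SE (edgeR, 3 libraries per group) for the 39 fitted genes, grouped by role, filled where the FPKM of the groups does not overlap. Bcar1 at −0.53 lies farthest from 0, the 2 actin genes lie above 0, and Rac1 has the widest SE, 0.66.

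Bcar1, the adhesion scaffold phosphorylated by FAK and Src, had the lowest estimate of the set. Bcar1 (ENSMUSG00000031955) lies on the minus strand of chromosome 8, 111710474 to 111743809 in GRCm38, and was listed at 8.85, 10.8 and 10.2 FPKM across Myrf-kd 1, 2 and 3. Its WT values were 13.1, 14.8 and 14.6 FPKM in libraries 1, 2 and 3. All 3 Myrf-kd libraries lay below all 3 WT libraries, and the gap between the groups was wider than the range within Myrf-kd. Myrf-kd averaged 9.95 ± 1.01 FPKM and WT 14.2 ± 0.922 FPKM (SD, n = 3 each; a value with ± below is likewise a mean with its SD over 3 libraries unless SE is written), and the fitted level in Myrf-kd was 0.693 of WT (log2 fold change −0.53 ± 0.10 SE). Between about 753 and 1330 fragments per library lay behind the values. With each library left out in turn the log2 fold change lay between −0.59 and −0.46.

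Its relative Nedd9 (Cas-L), which shares the domain order of Bcar1, was far lower on the FPKM scale and overlapped between the genotypes. Nedd9 was listed at 1.89, 1.55 and 1.78 FPKM across Myrf-kd 1, 2 and 3, against 1.68, 1.76 and 2.02 FPKM in WT 1, 2 and 3. The FPKM of Bcar1 was 4.68, 7.02 and 5.69 times that of Nedd9 across Myrf-kd 1, 2 and 3, against 7.80, 8.44 and 7.21 times in WT 1, 2 and 3. The size of this ratio depends on how transcript length is assigned, as given with the pairs below. The kinases that act on Bcar1 stayed close to WT. Ptk2, which encodes FAK, was at 4.88 ± 0.309 FPKM in Myrf-kd and 5.17 ± 0.417 in WT, while Src was at 8.82 ± 0.768 and 8.86 ± 0.694. The summed level of these 4 genes was 24.5, 27.1 and 24.6 FPKM across Myrf-kd 1, 2 and 3, against 28.2, 31.5 and 30.3 FPKM in WT 1, 2 and 3, and Bcar1 made up most of that gap.

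The promoters of Bcar1 are shown because it stood farthest from WT. RefSeq (GRCm38.p6) gives a pair of start sites on the minus strand, each printed 5′ to 3′ with 250 bases before and 50 after the start. Neither window holds a CArG box, the site bound by serum response factor, and so neither has capitals.
Bcar1, chr8:111732087-111732386: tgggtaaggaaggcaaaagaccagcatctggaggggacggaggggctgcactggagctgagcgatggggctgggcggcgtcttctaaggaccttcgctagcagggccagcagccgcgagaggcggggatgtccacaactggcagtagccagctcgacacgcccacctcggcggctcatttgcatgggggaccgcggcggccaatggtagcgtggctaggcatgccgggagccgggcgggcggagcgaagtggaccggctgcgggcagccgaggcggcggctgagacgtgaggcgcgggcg
Bcar1, chr8:111743800-111744099: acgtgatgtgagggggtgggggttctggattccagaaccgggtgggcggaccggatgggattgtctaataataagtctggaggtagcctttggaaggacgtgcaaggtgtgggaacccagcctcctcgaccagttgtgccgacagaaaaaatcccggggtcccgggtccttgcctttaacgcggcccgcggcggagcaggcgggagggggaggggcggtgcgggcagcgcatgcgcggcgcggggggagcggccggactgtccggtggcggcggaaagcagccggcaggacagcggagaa
Both windows are rich in G and C, at 69.7% and 66.7%, near the median of the 39 promoters listed for the set (66.7%) and above that of all 32851 promoters (52.7%).

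**Figure D3:**
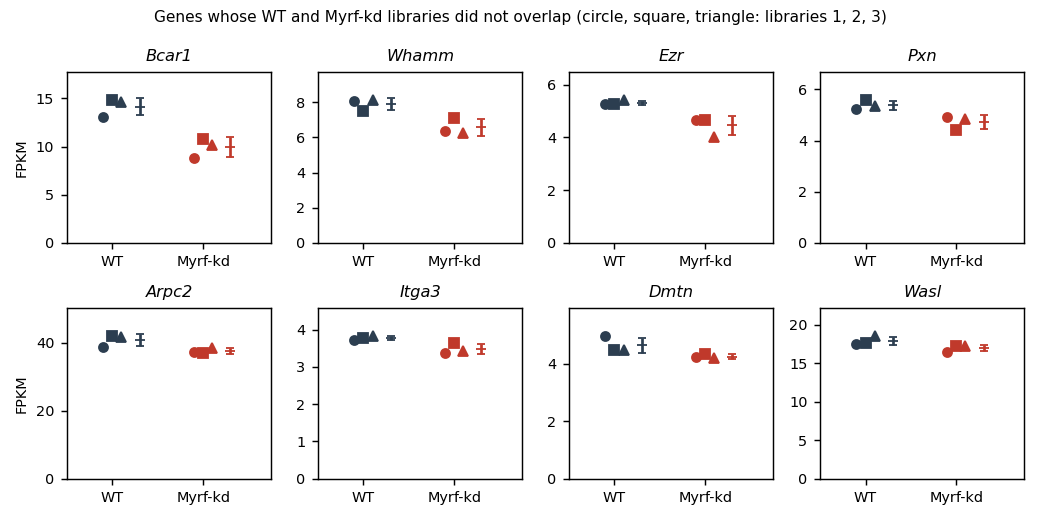
FPKM of the 8 genes whose groups did not overlap, for WT and Myrf-kd, with circle, square and triangle for libraries 1, 2 and 3 and the mean with its SD beside them. The gap is widest in Bcar1 and narrow in Arpc2, Itga3, Dmtn and Wasl.

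Among the integrin subunits, Itga3 did not overlap between the genotypes. Itga3 (chromosome 11, 95044474 to 95076797) encodes an alpha chain that pairs with Itgb1 as a laminin receptor and was listed at 3.38, 3.63 and 3.42 FPKM across Myrf-kd 1, 2 and 3. The WT values were 3.71, 3.77 and 3.82 FPKM in libraries 1, 2 and 3, and the highest Myrf-kd library stood just under the lowest WT library (log2 fold change −0.14 ± 0.08 SE). Itgb1, the beta chain shared by many integrins, was at 12.9 ± 0.656 FPKM in Myrf-kd and 13.2 ± 1.96 in WT, with overlap.

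Of the proteins that link integrins to actin, only paxillin was separate between the genotypes. Pxn (chromosome 5, 115506676 to 115555987), which encodes the paxillin scaffold, was listed at 4.93, 4.40 and 4.85 FPKM across Myrf-kd 1, 2 and 3, against 5.23, 5.57 and 5.34 FPKM in WT 1, 2 and 3 (log2 fold change −0.21 ± 0.08 SE). The talins, which bind integrin tails, were at 7.01 ± 0.395 FPKM in Myrf-kd and 7.00 ± 0.281 in WT for Tln1 and 15.6 ± 2.33 and 16.1 ± 0.667 for Tln2. The integrin-linked pseudokinase gene Ilk was at 21.3 ± 1.15 FPKM in Myrf-kd and 21 ± 1.42 in WT, while its partner Parva was at 10.8 ± 0.470 and 11.2 ± 0.681. These 4 genes overlapped. Of 50-base windows of the Ilk transcript, 14.1% also occur in Gm6263, so its reads may be split.

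Vinculin and zyxin had higher estimates in Myrf-kd with overlapping groups. Vcl, whose protein reinforces the talin link under force, was listed at 3.08, 2.90 and 2.13 FPKM across Myrf-kd 1, 2 and 3, against 2.38, 2.58 and 2.26 FPKM in WT 1, 2 and 3 (log2 fold change 0.15 ± 0.15 SE). Myrf-kd 1 and 2 lay above all WT libraries and Myrf-kd 3 below them, and the estimate became 0.04 without Myrf-kd 1, 0.10 without Myrf-kd 2 and 0.29 without Myrf-kd 3. Zyx, a LIM protein of stressed filaments, was listed at 2.82, 2.54 and 3.47 FPKM across Myrf-kd 1, 2 and 3, against 2.83, 1.92 and 3.11 FPKM in WT 1, 2 and 3. Its estimate of 0.15 ± 0.20 became −0.02 without WT 2, the library where it was lowest, 0.01 without Myrf-kd 3, 0.25 without Myrf-kd 2 and 0.29 without WT 3. Vcl overlaps Ap3m1 on the opposite strand, which was at 8.22, 9.16 and 9.31 FPKM across Myrf-kd 1, 2 and 3, against 7.33, 6.67 and 7.05 FPKM in WT 1, 2 and 3. No source used here says whether the libraries keep strand, and the part of Ap3m1 reads in the Vcl values was not tested.

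The small GTPases differed little between the genotypes, but Rac1 fell into 2 levels that did not follow genotype. Rac1, the GTPase that drives lamellipodia, was singled out after its values were seen. It was listed at 38.3, 9.60 and 37.3 FPKM across Myrf-kd 1, 2 and 3, against 39.0, 9.10 and 39.7 FPKM in WT 1, 2 and 3. Myrf-kd 2 and WT 2 stood together far below the other 4 libraries. Between about 602 and 3578 fragments lay behind these values, so the drop is larger than counting error. The overlapping gene Daglb ranged from 2.77 to 3.34 FPKM. Rac1 had a coefficient of variation of 52.4% over the 6 libraries, where the median of the set was 8.22%, and its log2 fold change was −0.05 ± 0.66 SE. Leaving out a single library moved it to between −0.47 (without WT 2) and 0.37 (without Myrf-kd 2).

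Cdc42, the GTPase of filopodia and polarity, was listed at 62.8, 64.4 and 69.0 FPKM across Myrf-kd 1, 2 and 3, against 66.1, 68.9 and 70.0 FPKM in WT 1, 2 and 3. Rhoa, which drives stress fibres through the ROCK kinases, was at 17.9 ± 0.954 FPKM in Myrf-kd and 18.7 ± 0.953 in WT. Both genes overlapped between the genotypes, with log2 fold changes of −0.08 ± 0.06 SE and −0.09 ± 0.07 SE. For Rhoa, 12.3% of 50-base windows are shared with other annotated transcripts, so part of its reads may be assigned elsewhere.

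**Figure D4:**
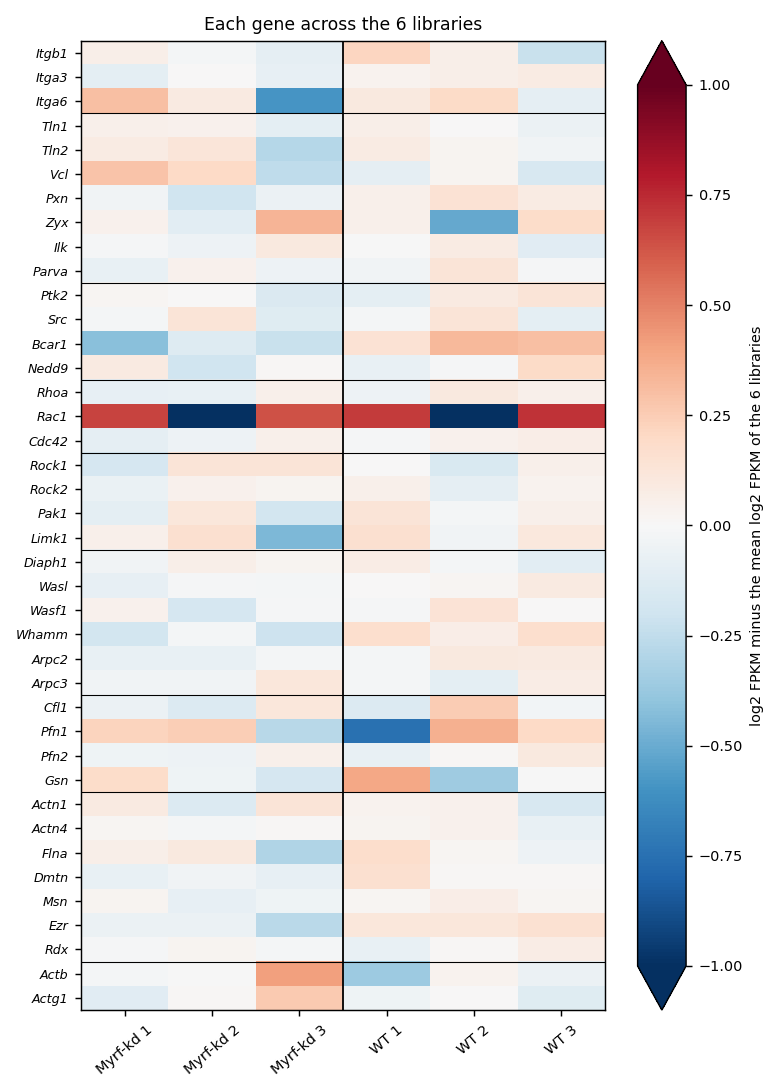
Log2 FPKM of each gene minus its mean log2 FPKM over the 6 libraries (colour scale from −1 to 1, values beyond it at the end colours), with genes grouped by role and the Myrf-kd libraries left of the line. Rac1 is low in Myrf-kd 2 and WT 2, Pfn1 is low in WT 1, and Bcar1 is low in all 3 Myrf-kd libraries.

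The kinases below the GTPases overlapped in all 4 genes. Rock2 was at 4.52 ± 0.178 FPKM in Myrf-kd and 4.51 ± 0.236 in WT, while Rock1 was at 1.33 ± 0.152 and 1.27 ± 0.0940. The kinase gene Pak1, switched on by Rac1 and Cdc42, was at 11.1 ± 1.21 FPKM in Myrf-kd and 12 ± 0.595 in WT. Limk1, which phosphorylates cofilin and so blocks severing, was at 3.98 ± 0.840 and 4.38 ± 0.301. The lowest Pak1 and Limk1 values were those of Myrf-kd 3.

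Among the 6 genes that start new filaments, Whamm, Arpc2 and Wasl are given per library because their groups did not overlap, as in 14.5% of all tested genes, and nothing is read from their number. Whamm (chromosome 7, 81571266 to 81596836), which encodes an activator of the Arp2/3 complex at Golgi and ER membranes, was listed at 6.36, 7.12 and 6.26 FPKM across Myrf-kd 1, 2 and 3. In WT 1, 2 and 3 Whamm was listed at 8.10, 7.53 and 8.11 FPKM, and its estimate was the second lowest of the set (log2 fold change −0.28 ± 0.09 SE). The annotated gene Gm45698 overlaps Whamm on the same strand and was at 0.520 to 1.09 FPKM. Arpc2, a core subunit of the Arp2/3 complex, was listed at 37.2, 37.1 and 38.6 FPKM across Myrf-kd 1, 2 and 3, against 38.7, 41.9 and 41.7 FPKM in WT 1, 2 and 3, so that Myrf-kd 3 and WT 1 all but touched. Wasl, the N-WASP activator that Cdc42 switches on, was listed at 16.5, 17.2 and 17.2 FPKM across Myrf-kd 1, 2 and 3, against 17.5, 17.7 and 18.5 FPKM in WT 1, 2 and 3. These gaps were small, with log2 fold changes of −0.14 ± 0.06 SE for Arpc2 and −0.10 ± 0.06 SE for Wasl.

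The other nucleation genes overlapped. Wasf1, the WAVE protein through which Rac1 acts on Arp2/3, was at 9.54 ± 0.715 FPKM in Myrf-kd and 10.1 ± 0.584 in WT. Arpc3, another Arp2/3 subunit, was at 10.7 ± 0.643 and 10.5 ± 0.605, and the formin gene Diaph1 at 6.88 ± 0.234 and 6.72 ± 0.416. The subunits Arpc2 and Arpc3 therefore did not show the same estimate, −0.14 ± 0.06 SE against 0.01 ± 0.09 SE. The summed level of the 6 genes was 87.2, 87.6 and 90.1 FPKM across Myrf-kd 1, 2 and 3. In WT 1, 2 and 3 the sum was 91.7, 94.6 and 95.7 FPKM, without overlap. Arpc2 alone averaged 37.6 ± 0.817 FPKM in Myrf-kd and 40.8 ± 1.79 in WT. Apart from the sum of Bcar1, Nedd9, Ptk2 and Src, the summed levels of all other roles overlapped between the genotypes. Since the genes were picked on this comparison, nothing is read from the sums.

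The genes for actin monomer binding and severing overlapped between the genotypes. Cfl1, the severing protein cofilin, was listed at 71.0, 67.2 and 79.9 FPKM across Myrf-kd 1, 2 and 3, against 67.1, 88.2 and 72.5 FPKM in WT 1, 2 and 3. Pfn2, the profilin of neurons, was listed at 54.1, 53.7 and 57.7 FPKM across Myrf-kd 1, 2 and 3, against 52.8, 56.0 and 59.6 FPKM in WT 1, 2 and 3. Profilins help actin monomers exchange ADP for ATP and hand them to formins. Pfn1, the widely expressed profilin, was listed at 15.4, 15.6 and 10.8 FPKM across Myrf-kd 1, 2 and 3, against 7.83, 16.9 and 15.1 FPKM in WT 1, 2 and 3. WT 1 was the lowest and Myrf-kd 3 the next, apart from the other 4, and the Pfn1 estimate of 0.05 ± 0.30 SE became −0.23 without WT 1. Gsn, the calcium-activated severing protein gelsolin, was at 1.5 ± 0.187 FPKM in Myrf-kd and 1.55 ± 0.398 in WT.

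Ezrin was the membrane anchor with the largest gap. Ezr (chromosome 17, 6738041 to 6782784), which ties actin to the membrane of microvilli, was listed at 4.67, 4.66 and 4.03 FPKM across Myrf-kd 1, 2 and 3. In WT 1, 2 and 3 Ezr was listed at 5.25, 5.25 and 5.40 FPKM, a narrow range above all Myrf-kd libraries (log2 fold change −0.27 ± 0.10 SE, and −0.20 without Myrf-kd 3). Its relatives differed less. Msn (moesin) was at 6.18 ± 0.238 FPKM in Myrf-kd and 6.48 ± 0.117 in WT, while Rdx (radixin) was at 20.4 ± 0.362 and 20.5 ± 1.06.

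Dmtn (chromosome 14, 70601263 to 70635978), which encodes the bundling protein dematin, was listed at 4.22, 4.34 and 4.19 FPKM across Myrf-kd 1, 2 and 3, against 4.95, 4.48 and 4.48 FPKM in WT 1, 2 and 3. Its groups were separate by a small margin (log2 fold change −0.14 ± 0.07 SE). The crosslinkers of filaments overlapped. The alpha-actinin gene Actn4 was at 20.5 ± 0.331 FPKM in Myrf-kd and 20.5 ± 0.897 in WT, with the smallest coefficient of variation of the 40 genes, 2.96%. Actn1 was at 7.09 ± 0.695 and 6.82 ± 0.522, and the filamin gene Flna at 11.8 ± 1.70 and 12.5 ± 1.03, lowest in Myrf-kd 3.

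The cytoplasmic actins had higher estimates in Myrf-kd, with groups that overlapped. Actb (beta-actin) was listed at 56.0, 56.6 and 75.6 FPKM across Myrf-kd 1, 2 and 3, against 44.2, 58.2 and 54.7 FPKM in WT 1, 2 and 3. Actg1 (gamma-actin) was listed at 109, 119 and 141 FPKM across Myrf-kd 1, 2 and 3, against 115, 118 and 109 FPKM in WT 1, 2 and 3. Both were highest in Myrf-kd 3, the library that stood apart on the first principal component, and Actb was lowest in WT 1. The log2 fold change was 0.24 ± 0.16 SE for Actb, the highest of the set, and became 0.08 without Myrf-kd 3 and 0.12 without WT 1. For Actg1 it was 0.10 ± 0.10 SE, and leaving out Myrf-kd 3 gave −0.02, WT 3 0.06 and Myrf-kd 1 0.17. The summed FPKM of 6 lens markers was also highest in Myrf-kd 3, at 26.7 against 0.246 to 10 in the other libraries, and its part in the actin values was not tested. Actin genes have many processed copies in the genome. Of 50-base windows 56.7% of the Actg1 transcript and 14.2% of the Actb transcript also occur in other annotated genes, and 1.6% of the Actb windows occur in Actg1, so the split of actin reads is uncertain.

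The promoters of Actg1 and Vcl are shown because they were the 2 of 30 genes with a promoter in the RefSeq table (GRCm38.p6) that hold a CArG box. No promoter was listed there for Actb, Pxn, Rac1, Ptk2, Itga6, Tln2, Parva, Rock1, Diaph1 and Dmtn, so these genes were not searched. The CArG box reads the same on both strands as a pattern and is in capitals. It occurs in 2 of the 39 promoter windows listed for the set (5.13%) and in 1.63% of all 32851 windows of 300 bases.
Actg1, chr11:120348446-120348745, minus strand: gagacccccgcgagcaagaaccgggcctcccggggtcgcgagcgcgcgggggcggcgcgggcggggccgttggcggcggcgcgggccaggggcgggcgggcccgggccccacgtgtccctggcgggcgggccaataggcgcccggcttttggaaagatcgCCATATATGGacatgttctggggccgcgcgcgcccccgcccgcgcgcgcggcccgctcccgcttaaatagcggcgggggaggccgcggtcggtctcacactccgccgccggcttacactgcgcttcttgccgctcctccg
Vcl, chr14:20929148-20929447, plus strand: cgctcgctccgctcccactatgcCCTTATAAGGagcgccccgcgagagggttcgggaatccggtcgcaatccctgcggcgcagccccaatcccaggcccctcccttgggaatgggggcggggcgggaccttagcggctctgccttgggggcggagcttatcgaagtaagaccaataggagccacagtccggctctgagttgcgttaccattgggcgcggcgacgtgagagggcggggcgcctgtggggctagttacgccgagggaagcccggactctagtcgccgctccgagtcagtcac
Counted from the start site, the box begins at base −90 in Actg1 and at base −227 in Vcl. The TEAD site GGAATG, searched on both strands, was found in 7 of the 39 windows, or 17.9% (Itgb1, Vcl, Wasf1, Arpc2, Pfn1, Actn4 and Flna), and in 14.7% of all windows. The TATA sequence TATAAA, searched the same way, was found in 3 of them, or 7.69% (Nedd9, Rhoa and Cdc42), and in 13.6% of all windows. A match describes these letters only, and for the Vcl and Actg1 estimates the groups overlapped.

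Which of 2 genes of a family or complex had the higher FPKM was compared within each library, a measure that the choice of the genes did not use. The higher gene was the same in all 6 libraries for each of 19 pairs. The exact two-sided sign-flip permutation test of the log2 FPKM ratio gave p = 0.0312 for each pair, the smallest that 6 libraries allow, and 0.0312 after Benjamini-Hochberg adjustment over the 19 pairs. The libraries hold both genotypes. A length or mapping effect that is alike in every library would give the same p. The test therefore shows a steady order on the FPKM scale, and it cannot show which gene has more RNA.

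Gamma-actin exceeded beta-actin, with an Actb to Actg1 ratio of 0.386 to 0.535. The neuronal profilin Pfn2 exceeded Pfn1 (Pfn1 to Pfn2 ratio 0.148 to 0.301), talin-2 exceeded talin-1 (Tln1 to Tln2 ratio 0.420 to 0.506) and Rock2 exceeded Rock1 (Rock1 to Rock2 ratio 0.268 to 0.308). Of the ezrin, radixin and moesin family, radixin was highest, with Ezr at 0.201 to 0.272 and Msn at 0.287 to 0.331 of its FPKM. Moesin exceeded ezrin 1.19 to 1.52 times. Actn4 exceeded Actn1, and Limk2 exceeded Limk1, which was at 0.109 to 0.146 of its relative.

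Ptk2, the gene of FAK, exceeded its relative Ptk2b 4.23 to 8.64 times, Diaph1 exceeded Diaph2 9.48 to 11.8 times and Itga3 exceeded Itga6 4.90 to 9.18 times. Wasl exceeded Wasf1 1.63 to 1.97 times and Arpc2 exceeded Arpc3 3.36 to 4.22 times. Parva exceeded Parvb 1.05 to 1.68 times, a pair that nearly met in Myrf-kd 3. Cdc42 exceeded Rac1, though the ratio of Rac1 to Cdc42 ran from 0.132 in WT 2 to 0.611 in Myrf-kd 1. Dstn, the relative of cofilin, exceeded Cfl1 on the FPKM scale (Cfl1 to Dstn ratio 0.658 to 0.851). That order turned round, to a mean ratio of 1.63, when estimated counts were divided by the mean length of the annotated transcripts instead, so it rests on how transcript length is assigned. The size of the other ratios depends on length too. With those lengths 10 of the 19 pairs moved by more than 1.5 times, Cfl1 and Dstn among them, and only that pair changed its order. The mean ratio became 5.43 for Wasl to Wasf1, 16.3 for Ptk2 to Ptk2b, 1.74 for Arpc2 to Arpc3 and 3.34 for Itga3 to Itga6. It became 0.776 for Tln1 to Tln2, 0.570 for Rock1 to Rock2, 0.580 for Msn to Rdx, 1.96 for Msn to Ezr and 3.52 for Bcar1 to Nedd9.

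**Figure D5:**
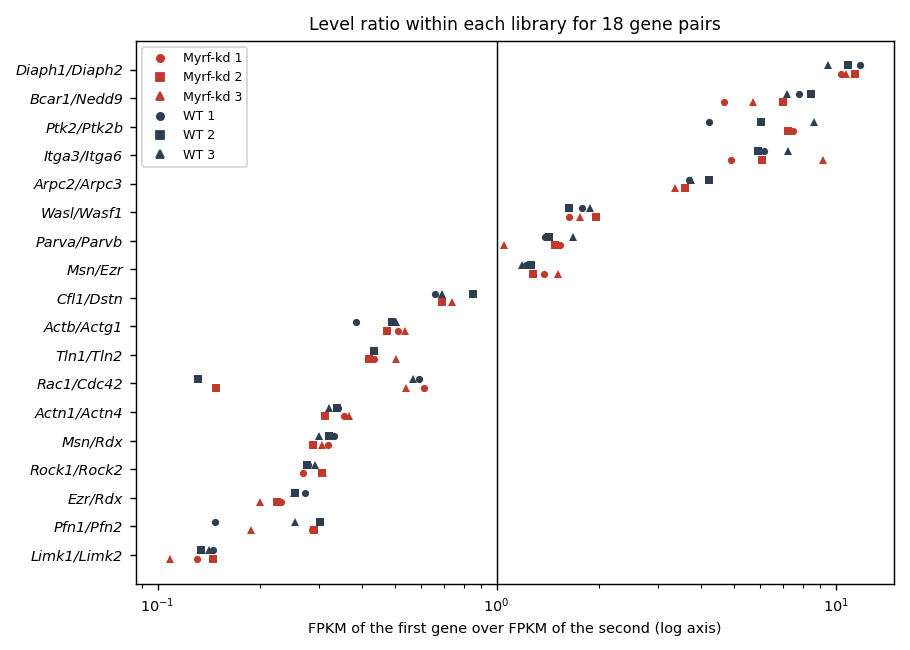
Ratio of the FPKM of the first gene to that of the second in each library (log axis) for 18 of the 19 pairs, sorted by mean ratio, with colour for genotype and shape for library number. Each pair lies wholly on 1 side of the line at 1, and the ratio of Rac1 to Cdc42 splits into 2 levels.

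The wider pathway was described with 9 lists of other genes, 197 in all and none of them among the 40. Of these, 156 reached the filter and 0 passed edgeR's test over all genes in either direction. At an unadjusted p under 0.05 by edgeR 10 of the 156 were lower and 1 was higher. Of all 13673 tested genes 510 (3.73%) were lower and 514 (3.76%) higher. The FPKM of the groups did not overlap in 16.7% of the 156 genes, 16 lower and 10 higher. Of all tested genes 14.5% did not overlap, with 6.57% lower and 7.96% higher. DESeq2 and limma on log2(FPKM + 1) called 0 of them. The estimate was below 0 in 92 genes (59.0%), where 49.0% of all tested genes were below 0, and the median estimate was −0.03 on the log2 scale. With library totals as the only scaling 76 genes were below 0, where 40.1% of all tested genes were. Under the table's own KEGG terms, 64.0% of 136 tested focal adhesion genes were below 0. For regulation of the actin cytoskeleton it was 67.6% of 136 tested genes. Those terms hold 25 and 31 of the 40 genes, and such terms were part of the reason why the genes were picked. The 9 lists cover the same pathways, so they are no independent check. Nothing is read from the counts and shares of the lists or terms.

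Genes of the FAK and paxillin network had estimates below 0 in 18 of 25 tested genes (34 listed), and their median estimate was −0.06 on the log2 scale. The LIM protein gene Trip6, a relative of zyxin, was at 3.53 ± 0.229 FPKM in Myrf-kd and 4.66 ± 0.349 in WT. The Src family kinase gene Fyn was at 10.9 ± 0.695 and 12.4 ± 0.256, and Evl, an Ena/VASP gene, at 26.3 ± 1.23 and 29.6 ± 1.12. In each of these 3 genes the groups did not overlap, and their edgeR adjusted p was 0.666. They were named for the smallest p of their list, as were the genes named from the lists below. Separate groups are therefore partly built into the choice of names. Over the 25 tested genes the groups were separate in 16.0%, where 14.5% of all tested genes were. Of 16 other integrin genes 5 were tested and 4 had estimates below 0. Itgav, the alpha chain of vitronectin receptors, was listed at 4.47, 5.23 and 0.790 FPKM across Myrf-kd 1, 2 and 3, against 4.70, 5.09 and 5.20 FPKM in WT 1, 2 and 3, so only Myrf-kd 3 lay far below the others. Itga9 was at 1.39 ± 0.279 FPKM in Myrf-kd and 1.60 ± 0.184 in WT, while Itga4 was at 3.96 ± 0.224 and 3.67 ± 0.400 (edgeR adjusted p = 0.751 and 0.790).

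Of 20 tested small GTPase genes and regulators (21 listed) 9 had estimates below 0 and 11 above. Rhob was at 16.2 ± 1.87 FPKM in Myrf-kd and 19.3 ± 0.690 in WT, Vav2 at 2.06 ± 0.0747 and 2.30 ± 0.169 and Rhoq, the GTPase TC10, at 7.12 ± 0.434 and 6.10 ± 0.156, each without overlap (edgeR adjusted p = 0.666, 0.697 and 0.666). Of 22 tested effectors of small GTPases (24 listed) 16 were below 0. The cofilin phosphatase genes Ssh2 and Ssh3 were at 3.09 ± 0.359 FPKM in Myrf-kd and 3.67 ± 0.151 in WT for Ssh2, then 2.02 ± 0.318 and 2.52 ± 0.450 for Ssh3, and the formin gene Fhod1 at 5.41 ± 0.601 and 4.47 ± 0.286 (edgeR adjusted p = 0.666, 0.696 and 0.666).

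Arp2/3 subunits and activators were near even, with 12 of 22 tested genes (26 listed) below 0. Washc1, the WASH activator of endosomes, was at 8.14 ± 0.496 FPKM in Myrf-kd and 9.68 ± 0.686 in WT without overlap (edgeR adjusted p = 0.666). The subunit gene Arpc5l was at 11.6 ± 0.504 and 12.8 ± 0.810 and the WAVE complex gene Abi1 at 13.9 ± 0.179 and 14.8 ± 0.798. Genes for filament ends and monomers had 9 of 18 tested genes (23 listed) below 0. The capping gene Capza1 was at 24.1 ± 0.327 FPKM in Myrf-kd and 21.1 ± 2.13 in WT, without overlap. The adducin gene Add1 was at 27.1 ± 2.79 and 38.7 ± 10.2, and Cap1 at 21.7 ± 8.30 and 15.9 ± 0.373. Add1 and Cap1 overlapped, with single libraries far from the rest of their group.

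Crosslinkers and membrane skeleton genes had 10 of 19 tested genes (23 listed) below 0, and in 0 of them were the groups separate. The dystrophin gene Dmd was at 1.12 ± 0.159 FPKM in Myrf-kd and 0.895 ± 0.104 in WT, Epb41l2 at 63.5 ± 0.892 and 67.9 ± 4.66 and the plastin gene Pls3 at 11.6 ± 0.953 and 10.2 ± 1.72. Of 15 myosin and tropomyosin genes 8 were below 0. The light chain gene Myl12b was at 25.7 ± 0.628 FPKM in Myrf-kd and 27.9 ± 0.649 in WT without overlap. The heavy chain gene Myh14 was at 4.36 ± 0.137 and 4.59 ± 0.0654, also without overlap. The transport motor gene Myo5a was listed at 14.7, 13.9 and 12.9 FPKM across Myrf-kd 1, 2 and 3, against 14.3, 5.13 and 4.53 FPKM in WT 1, 2 and 3. It passed edgeR's test when WT 1 was left out and in no other of the alternatives run.

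Serum response factor, its cofactors and its known targets had 6 of 10 tested genes (15 listed) below 0. The contractile gene Tagln was listed at 1.93, 2.16 and 1.73 FPKM across Myrf-kd 1, 2 and 3, against 3.02, 2.33 and 3.33 FPKM in WT 1, 2 and 3. The matricellular gene Ccn1 was listed at 3.35, 2.86 and 1.70 FPKM across Myrf-kd 1, 2 and 3, against 4.32, 3.92 and 4.11 FPKM in WT 1, 2 and 3. Both were lower in all 3 Myrf-kd libraries (edgeR adjusted p = 0.666). Acta2, the actin of smooth muscle, was at 2.55 ± 0.265 FPKM in Myrf-kd and 3.14 ± 0.648 in WT, with overlap.

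Adhesion and actin genes are abundant in vessel walls, connective tissue and surface epithelia, and whole retina RNA does not tell fewer cells of a type from less RNA per cell. Of 16 lists of cell type markers, summed over the genes reported here, those for cornea and fibroblasts did not overlap between the genotypes. Of all tested genes 14.5% did not overlap, and nothing is read from the number of such lists. The cornea list (5 genes) was at 0.251 to 2.29 FPKM in Myrf-kd and 5.53 to 7.41 FPKM in WT, with Kera listed without signal in all libraries but WT 3 and Krt14 at no more than 0.160 FPKM. The fibroblast list (5 genes) was at 2.50 to 3.63 and 4.02 to 4.73 FPKM. Both lists were low, and 3 of the cornea genes and 1 of the fibroblast genes reached a mean of 1 FPKM. Over 6 rod genes the sum was 5230 to 5690 FPKM in Myrf-kd against 5450 to 5720 FPKM in WT, with overlap. The endothelial list (17.5 to 20.4 FPKM in Myrf-kd and 17.1 to 20.1 in WT), the mural list (18.4 to 20.0 and 18.5 to 21.5) and the Mueller glia list (1060 to 1140 and 1060 to 1150) overlapped. The list for the retinal pigment epithelium (RPE) was at 49.3 to 72.9 FPKM in Myrf-kd and 65.9 to 92.5 in WT. Its groups overlapped, with Myrf-kd 1 and 2 below all WT libraries. The part of the cornea, fibroblast and RPE lists in the lower estimates of Bcar1, Ezr, Pxn, Itga3 and Tagln was not tested.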

How the data were processed

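RNA of mouse retina was measured in 6 libraries, 3 Myrf-kd and 3 WT, grouped and numbered by the sample titles. Per the labels' protocols, the RNA came from a Trizol extraction, and library preparation was as Illumina recommends. Per the submitters' processing notes, the tools were Bowtie 0.12.2, HISAT2 2.0 and StringTie 1.3.0 and the build GRCm38, without a stated role for each. The authors deposited FPKM values, with 0.0001 for no signal, and whole-number counts per gene. The deposited counts were read as estimated counts, since for single-transcript genes above 200 units they stayed within 1% of a constant times FPKM and transcript length. Of 1, 2, 3, 4, 5 and 8 units, 4 was the most frequent value, and it was read as a fragment. Rounding changed no count.

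Genes averaging 1 FPKM or more (13673) entered the quasi-likelihood test of edgeR 4.0.16 on the counts, with genotype as term and TMM factors, two-sided with Benjamini-Hochberg adjustment and a threshold of 0.05. An SE is the log2 fold change over the root of F. Alternatives used DESeq2 1.42.0, limma 3.58.1, other filters and scalings, a replicate block and omitted libraries. The statistics were checked on simulated counts. The biological coefficient of variation was 20.3%. No pair of libraries matched within sampling noise (chi-square per degree of freedom at least 18.3).

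The members, lists and rules were chosen with earlier results of these data known. Given per library are Bcar1, the 4 lowest and 4 highest estimates, separate groups, the 6 most abundant genes, 3 pairs and genes below the filter, and up to 3 genes of smallest p per pathway list. A search with the symbols Mkl1, Mkl2, Ctgf and Cyr61 used their current names. Shared windows came from GENCODE M21 transcripts, and promoters from RefSeq, where 30 of 40 genes matched. The edgeR p-values weigh a difference against the spread between these samples, which may not be separate animals. Fragment counts give counting error only. The values of 1 pair and 1 marker gene are not reported here, and the list that holds the gene was summed without it, a choice made after seeing the data.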

Additional observations from a re-analysis of the deposited data

How the results depend on the processing

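The count of 6 genes past the threshold by edgeR became 53 with DESeq2, 2 with a mean FPKM of at least 5, 22 without both libraries numbered 3 and 9 to 16 with each library left out in turn. With the replicate number as a block it became 0 (702 at an unadjusted p under 0.05 by edgeR). Deviations from the group mean correlated at −0.0422, 0.0824 and 0.14 between samples numbered 1, 2 and 3, so the numbers were not taken as pairs. The cause of these shifts was not tested. The count of 29 genes of the set with estimates below 0 lay between 21 (of 29 tested, mean FPKM of at least 5) and 31 (of 40 tested, no filter) over all alternatives. The median log2 fold change of the set lay between −0.096 and −0.027. Of 614 single values of the 39 genes under the alternatives, 2 moved by more than the spread within groups, Itga3 with limma on log2(FPKM + 1) (−0.09) and Actg1 without both libraries numbered 3 (−0.05). Leaving out 1 of 3 libraries can hardly shift an estimate by that much, so the count of 2 says little about single omissions. Rac1 ran from −0.47 to 0.37 and was not counted as moved. In 17 genes the estimate kept its sign in every alternative in which the gene was fitted, Bcar1 (−0.59 to −0.46), Whamm (−0.34 to −0.23), Ezr (−0.31 to −0.19), Pxn (−0.24 to −0.15) and Actb (0.08 to 0.33) among them. In 22 genes it changed sign in at least 1. The alternatives refit the same 6 libraries on the comparison that picked the genes, so a kept sign is no separate evidence. The share of all tested genes that kept their sign is not given, and nothing is read from these counts. All 19 pairs also passed with counts over transcript length, an alternative chosen after seeing the data, with Cfl1 and Dstn in the opposite order. Passing in both orders means that the test shows only a steady order across libraries. The deposited table gives no gene length, so a ratio per deposited length was not run. With 5 libraries the sign-flip test cannot pass, so no omission was run for it. With 3 libraries per group, the few fragments behind Itga6 and Gsn limit what could be seen.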

Other observations

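Several genes of the actin machinery had 1 or 2 libraries that stood apart from the others, not along genotype alone, and these values are given with no explanation. Rac1 was at 9.10 to 9.60 FPKM in Myrf-kd 2 and WT 2 and at 37.3 to 39.7 FPKM in the other libraries. Pfn1 was at 7.83 FPKM in WT 1, 10.8 in Myrf-kd 3 and 15.1 to 16.9 in the others. Itgav was at 0.790 FPKM in Myrf-kd 3 and 4.47 to 5.23 in the others, and Cap1 at 31.1 FPKM in Myrf-kd 1 and 15.4 to 18.3 in the others. Add1 was at 45.4 and 43.7 FPKM in WT 2 and WT 3 and 24.5 to 30.0 in the others, while Myo5a was at 5.13 and 4.53 FPKM in the same 2 libraries and 12.9 to 14.7 in the others. These genes were chosen after their values were seen.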
